A study of Mus musculus with 25 samples.

Results

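Cells sorted from the mouse spinal cord 3 months after a contusion injury were compared with whole injured tissue at the same time after injury, to see which transcripts the sort carried over at the chronic stage and which it left behind. The sorted cells came from mice of genotype GFAP-Cre-/+:R26-tdT-/+, in which a Cre recombinase under the Gfap promoter switches on the red fluorescent protein tdTomato in cells that express, or once expressed, that promoter. Of their strain nothing is stated. The cord was digested with papain, trypsin and DNase, myelin was removed with beads, and tdTomato-positive cells were taken by fluorescence-activated sorting. The tissue was the injury epicentre of C57BL/6 mice without the reporter, put directly into TRIzol. All animals of these 5 libraries had received a 60 kdyn impact at thoracic level 9, and every replicate pooled 3 mice. The 5 libraries, of 25 in the series, were chosen by their labels alone: sorted replicates 1 and 3, and tissue replicates 1, 2 and 3. The same comparison at 1 month after injury, with 3 sorted and 3 tissue libraries, served as the nearest counterpart. Genotype, digestion, sorting and the table that holds the counts all go with the groups, so that their effects and those of cell type cannot be told apart.

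The sorted libraries held 36.3 and 22.5 M counts and the tissue libraries 26.2, 27.1 and 23.6 M. Of 43468 genes listed for both kinds of sample, 21348 had enough counts to be tested. Values are CPM (counts scaled to a common library size) after scaling of the 5 libraries, differences are log2 values of sorted cells over tissue with the standard error (SE), and a gene was called when its adjusted p was under 0.05 (edgeR's quasi-likelihood test, Benjamini-Hochberg over all genes tested). In sorted cells 4882 genes (22.9%) were called higher and 5984 (28%) lower, 50.9% of those tested. The calls of each list below are to be read against these shares. The sorted libraries varied more between replicates than the tissue did, with a biological coefficient of variation of 0.319 against 0.178. They also held few low counts: 6.56% and 6.76% of their detected genes had 1 to 9 counts, against 28.6% to 29% in tissue. Between the 2 sorted libraries 437 genes were at 0 in one and above 50 counts in the other, with up to 7.46 CPM opposite a 0, whereas no pair of tissue libraries had such a gene. A 0 in a sorted library therefore does not bound a gene as closely as counting error alone would. Mitochondrial transcripts took 2.15% and 1.85% of counts in sorted cells, against 3.31% to 3.88% in tissue.

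Astrocytes support synapses, clear glutamate and potassium and, after injury, form a border around the lesion; Gfap, their intermediate filament gene, is strongly induced in that reaction. Oligodendrocyte precursor cells renew the myelinating oligodendrocytes and gather at the lesion together with microglia and macrophages, which take up debris. Ependymal cells line the central canal with motile cilia. Each of these cell types has marker genes by which its share in a bulk RNA sample can be followed, although a smaller number of cells and less RNA per cell cannot be told apart.

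Astrocyte markers were lower in sorted cells than in tissue, although the labels call the sorted cells astrocytes. Of 32 genes of astrocyte identity and mature function, 1 was called higher and 29 lower, where 22.9% of all genes tested were called higher and 28% lower. Their median log2 difference was -2.05, against -0.09 over all genes tested. Gfap (chr11:102887336-102900912, minus strand, GRCm38) had 158 and 162 CPM in sorted cells, against 6861, 6121 and 6423 CPM in tissue. It was thus 40.5-fold lower in sorted cells, with both groups narrow and far apart (log2 difference -5.34 ± 0.13 SE, adjusted p = 3.1e-05). Aqp4, the water channel of astrocyte endfeet, had 59.5 and 42.3 CPM in sorted cells, against 891, 1118 and 1132 CPM in tissue, a log2 difference of -4.36 ± 0.23 SE. Aldh1l1, a folate enzyme widely used as an astrocyte marker, had 4.53 and 12.4 CPM in sorted cells, against 77.8, 80.4 and 81.05 CPM in tissue. The sorted replicates differed from each other there by more than the tissue replicates did, and both lay far below tissue (log2 difference -3.26 ± 0.43 SE).

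The genes of astrocyte transport fell less evenly. Slc1a2, the main glutamate transporter of the adult nervous system, had 269 and 276 CPM in sorted cells, against 1416, 1996 and 1834 CPM in tissue, and Slc1a3, the other astrocyte glutamate transporter, 115 and 88.3 CPM in sorted cells, against 162, 191 and 184 CPM in tissue. Their log2 differences were -2.68 ± 0.18 SE and -0.81 ± 0.15 SE. The gap junction gene Gja1 changed by -1.85 ± 0.29 SE and the amino acid exchanger gene Slc7a10 by -2.32 ± 0.21 SE on the log2 scale. Gpr37l1, a receptor gene of astrocytes, was the single member called higher, with 549 and 607 CPM in sorted cells, against 402, 413 and 408 CPM in tissue (log2 difference 0.50 ± 0.090 SE, adjusted p = 0.00597). That call was lost when the replicate number was added to the edgeR fit (adjusted p = 0.0802). Sox9, a transcription factor of astrocytes and of ependymal cells, had 167 and 58.4 CPM in sorted cells, against 67.8, 68.1 and 77.5 CPM in tissue. Sorted replicate 1 lay above the tissue libraries and replicate 3 below them, so that the groups overlapped and no call was made (adjusted p = 0.216); its log2 difference was -0.35 without sorted replicate 1, and 1.18 and called without sorted replicate 3. The label of the sort and these markers thus go against each other, and the samples are called sorted cells here and not astrocytes.

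**Figure D1:**
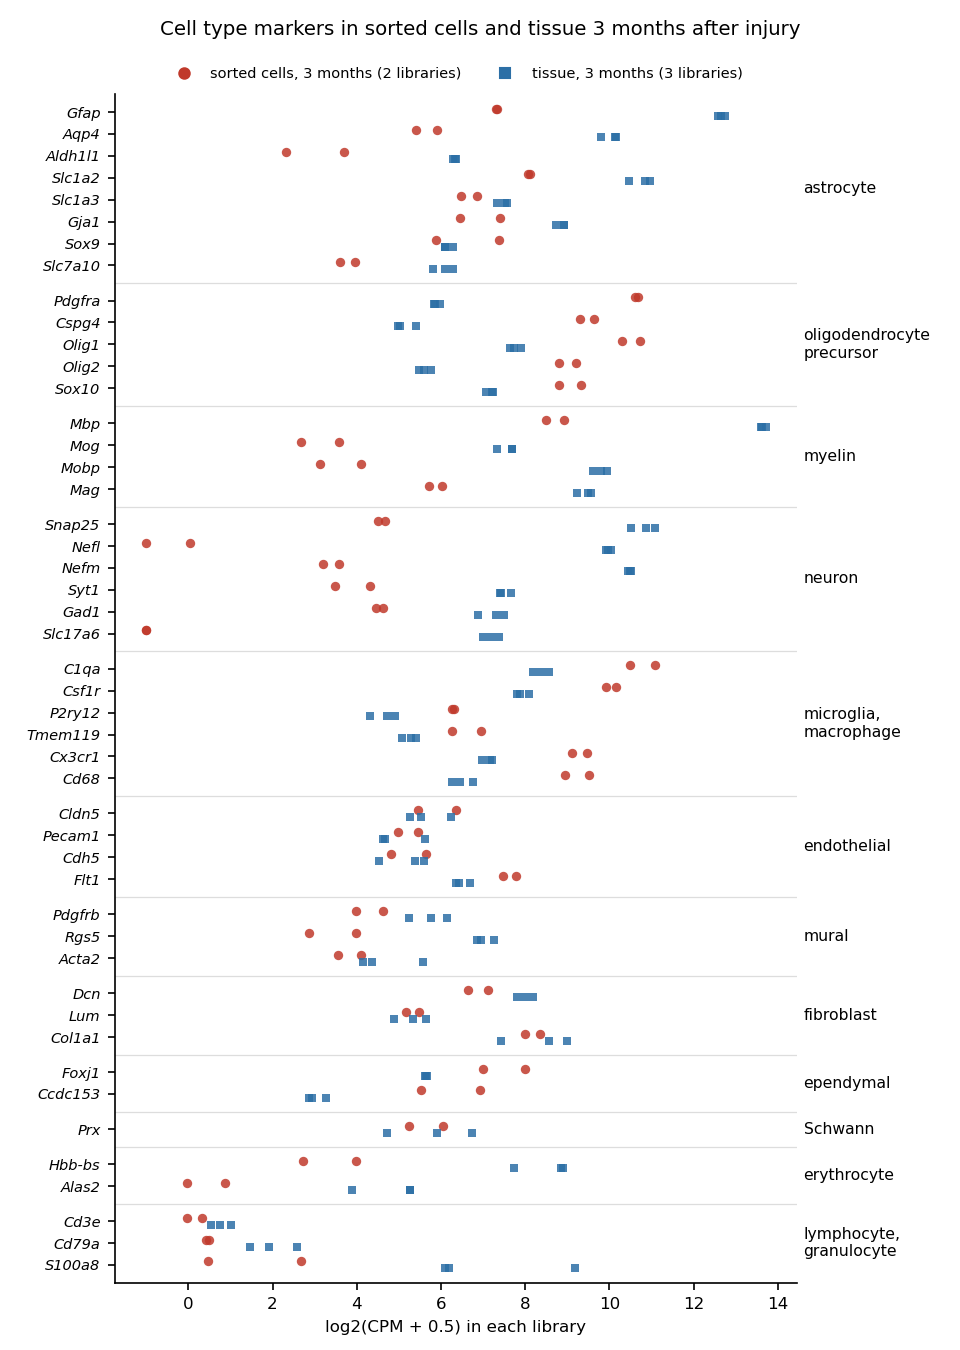
Each point is 1 library at 3 months, sorted cells as circles and tissue as squares, and the horizontal axis gives log2(CPM + 0.5) for marker genes of 12 cell types. Astrocyte genes other than Sox9, whose groups overlap, lie to the left in sorted cells, as do myelin and neuron genes. Oligodendrocyte precursor, microglia and ependymal genes lie to the right. Gfap, for example, had 158 and 162 CPM in sorted cells, against 6861, 6121 and 6423 CPM in tissue.

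Genes that astrocytes induce after injury were divided. Of 32 such genes, 8 were called higher, 11 lower and 13 neither way. As a list they stood near all genes tested, of which 22.9% were called higher and 28% lower. The higher ones were led by Cd14, a co-receptor for bacterial lipopolysaccharide that microglia also express (4.86 ± 0.11 SE), by the prostaglandin synthase gene Ptgs2 (3.94 ± 0.41 SE) and by the chemokine gene Ccl2. The lower ones included the pentraxin gene Ptx3 (-4.60 ± 1.23 SE), the iron-binding lipocalin gene Lcn2 (-4.13 ± 0.92 SE) and the complement gene C3 (-2.35 ± 0.19 SE). Serpina3n, a protease inhibitor gene often used to mark reactive astrocytes, had 93.8 and 186 CPM in sorted cells, against 327, 275 and 354 CPM in tissue, and Vim, an intermediate filament gene shared by several cell types, 1459.8 and 1268 CPM in sorted cells, against 902, 633 and 785 CPM in tissue. Serpina3n was called lower (-1.19 ± 0.30 SE) and Vim higher (0.82 ± 0.17 SE). The count of lower members fell to 6 without tissue replicate 1 and to 7 without tissue replicate 3, and the calls of Ptx3 and Serpina3n were lost in both cases. Ptx3 was also lost without tissue replicate 2, and Lcn2 with limma-voom, where its adjusted p was 0.237.

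Markers of oligodendrocyte precursor cells were the most uniform group of higher genes. All 22 members tested were called higher, with a median log2 difference of 3.43 and summed levels of 9934 and 11332 CPM in sorted cells, against 1005, 1163 and 1131 CPM in tissue. Pdgfra, the growth factor receptor that defines these cells in the cord and that fibroblasts also carry (chr5:75152292-75198215, plus strand), had 1556 and 1628 CPM in sorted cells, against 57.03, 57.5 and 62.5 CPM in tissue. That is a 26.97-fold difference, with the 5 libraries tight within their groups (log2 difference 4.75 ± 0.10 SE, adjusted p = 2.42e-05). Cspg4, which encodes the NG2 proteoglycan and is shared with pericytes, had 632 and 800.2 CPM in sorted cells, against 42.2, 31.3 and 32.2 CPM in tissue. Vcan, the gene of the matrix proteoglycan versican, had the largest difference of the list, 5.33 ± 0.18 SE. The lineage transcription factors followed: Olig2 had 444 and 591 CPM in sorted cells, against 43.8, 53.7 and 48.2 CPM in tissue, while Olig1 differed by 2.76 ± 0.16 SE and Sox10 by 1.92 ± 0.17 SE.

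Further along the same lineage the direction turned. Of 18 genes of newly formed oligodendrocytes, 7 were called higher and 6 lower. Nkx2-2, a transcription factor of the transition from precursor to oligodendrocyte, had 37.9 and 52.8 CPM in sorted cells, against 12.6, 16.4 and 14.1 CPM in tissue (1.66 ± 0.20 SE), and Itpr2, a calcium channel gene of that stage, differed by 1.93 ± 0.093 SE. Enpp6, an enzyme gene of newly differentiating cells, had 2.86 and 3.23 CPM in sorted cells, against 35.2, 52.99 and 54.004 CPM in tissue (-3.96 ± 0.27 SE), and Myrf, the factor that turns on myelin genes, differed by -3.07 ± 0.15 SE. Of the 25 genes of mature oligodendrocytes and myelin, none was called higher and all 25 were called lower, at a median of -3.56. Mbp, which encodes myelin basic protein, had 361 and 482 CPM in sorted cells, against 12387, 13447 and 12555 CPM in tissue, and Mobp, another myelin protein gene, 16.7 and 8.24 CPM in sorted cells, against 786, 987 and 886 CPM in tissue. Their log2 differences were -4.93 ± 0.19 SE and -6.14 ± 0.37 SE. The beads took myelin from the digested cord and not from the tissue, and their part in these values was not tested.

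Neuronal transcripts were the most depleted group. Of 29 neuron markers tested, none was called higher and 27 were called lower, with a median log2 difference of -5.35, and 5 of them had no count in either sorted library. Snap25, a protein of synaptic vesicle release, had 22.3 and 25.1 CPM in sorted cells, against 1467, 2157 and 1866 CPM in tissue. Nefl, a neurofilament gene, had 0.521 and 0 CPM in sorted cells, against 1049, 999 and 971 CPM in tissue. Both were far below tissue in every sorted library, Snap25 by 77.2-fold (log2 difference -6.27 ± 0.24 SE). Slc17a6, the vesicular glutamate transporter gene of excitatory cord neurons, was at 0 in sorted cells, against 127, 165 and 146 CPM in tissue. At a floor of 3 counts per library that is at least 1398-fold lower. That floor covers counting error only, so the real difference may be smaller. Some neuronal transcripts were still counted in both sorted libraries. Syt1, a synaptic vesicle gene, had 10.7 and 19.4 CPM in sorted cells, against 168, 201 and 170.3 CPM in tissue. Gad1, a GABA synthesis gene, had 24.2 and 21.6 CPM in sorted cells, against 118, 181 and 157 CPM in tissue.

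Genes of ependymal cells and motile cilia were higher in sorted cells. Of 24 members, 21 were called higher and none lower, with a median of 2.88. Foxj1, the transcription factor of motile cilia, had 257 and 127 CPM in sorted cells, against 49.3, 48.7 and 50.2 CPM in tissue (1.96 ± 0.28 SE, adjusted p = 0.0028). Ccdc153, another gene of ciliated cells, had 121 and 45.3 CPM in sorted cells, against 6.79, 9.11 and 7.19 CPM in tissue. The axonemal dynein gene Dnah12 had 102 and 25.5 CPM in sorted cells, against 1.87, 2.81 and 3.55 CPM in tissue, and Hydin, of the central pair of the cilium, 122 and 37.9 CPM in sorted cells, against 2.54, 4.29 and 4.33 CPM in tissue. In each of these genes sorted replicate 1 was above replicate 3, and both were above all 3 tissue libraries. Summed over the list, the level was 1629 and 687 CPM in sorted cells, against 168, 189 and 179 CPM in tissue.

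Microglia and macrophage markers were also higher. Of 30 members, 28 were called higher and 1 lower, with a median of 1.98 and summed levels of 19735 and 24916 CPM in sorted cells, against 5671, 4060.2 and 4592 CPM in tissue. C1qa, a complement subunit gene of microglia and macrophages (chr4:136895917-136898803, minus strand), had 1442 and 2179 CPM in sorted cells, against 380.3, 291 and 334 CPM in tissue, and Csf1r, the receptor on which these cells depend for survival, 970.1 and 1151 CPM in sorted cells, against 272, 224 and 236 CPM in tissue. Those are log2 differences of 2.43 ± 0.21 SE and 2.12 ± 0.13 SE. Cd68, a lysosomal protein gene of phagocytes, had 496 and 736 CPM in sorted cells, against 107, 76.3 and 87.4 CPM in tissue (2.77 ± 0.22 SE). The 2 markers most particular to resident microglia, P2ry12 and Tmem119, were higher as well, by 1.63 ± 0.19 SE and 1.39 ± 0.22 SE. Cd163, a scavenger receptor gene of perivascular and meningeal macrophages, was the member called lower, with 0.729 and 0 CPM in sorted cells, against 6.35, 3.91 and 4.42 CPM in tissue, and Mrc1, another gene of those macrophages, had 21.1 and 13.7 CPM in sorted cells, against 23.9, 12.5 and 16.04 CPM in tissue with overlapping groups. The Cd163 call was lost without any of the 3 tissue libraries and with limma-voom, where its adjusted p was 0.0504.

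The other cell types of the cord gave no uniform gain. Of 22 endothelial markers, 3 were called higher and none lower: the tight junction gene Ocln (1.31 ± 0.25 SE), the receptor gene Flt1 (1.14 ± 0.15 SE) and the glucose transporter gene Slc2a1. Cldn5, the defining tight junction gene of endothelium, had 43.7 and 81.97 CPM in sorted cells, against 74.9, 37.8 and 45.8 CPM in tissue. Pecam1, an adhesion gene of the same cells, had 31.2 and 43.3 CPM in sorted cells, against 48.4, 24.3 and 25.1 CPM in tissue. The groups overlapped in both genes. The count of endothelial genes called higher became 5 with upper-quartile scaling, 6 with library totals only, 7 without sorted replicate 1 and 6 without tissue replicate 1. Among 17 pericyte and smooth muscle markers 2 were called higher and 11 lower. The 2 higher ones were Cspg4 and the peptidase gene Anpep, neither of them particular to pericytes, while the lower ones included Pdgfrb, a defining pericyte receptor gene, with 15.4 and 24.2 CPM in sorted cells, against 69.9, 37.5 and 54.3 CPM in tissue, and the signalling regulator gene Rgs5, with 6.79 and 15.3 CPM in sorted cells, against 152, 115 and 124 CPM in tissue. Of 25 fibroblast and meningeal markers 3 were called higher and 14 lower; Pdgfra was one of the 3, and the matrix gene Dcn had 98.8 and 138 CPM in sorted cells, against 289.6, 223 and 256 CPM in tissue. Schwann cell markers were divided, 7 higher, led by Egr2, which is also an immediate early gene, and 4 lower of 18; the lower count was 2 without tissue replicate 1 or 3 and 1 with limma-voom.

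Blood-derived transcripts were low in the sort. All 9 erythrocyte genes tested were called lower, and the globin gene Hbb-bs had 15.3 and 6.104 CPM in sorted cells, against 480.03, 211 and 458 CPM in tissue; near-identical globin copies can share reads. Of 21 lymphocyte and granulocyte markers tested, none was called higher and 13 lower. S100a8, a neutrophil gene, had 0.885 and 5.93 CPM in sorted cells, against 581, 72.96 and 68.4 CPM in tissue, and tissue replicate 1 stood far above the other 2; the call was lost without sorted replicate 1. The T cell gene Cd3e was low everywhere, at 0.755 and 0.48 CPM in sorted cells and 1.51, 1.18 and 0.954 CPM in tissue, and was not called except without sorted replicate 1. With limma-voom and a separate variance for each kind of sample, 4 erythrocyte and 2 lymphocyte and granulocyte genes were called lower, as were 5 pericyte and smooth muscle genes and 7 fibroblast genes.

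**Figure D2:**
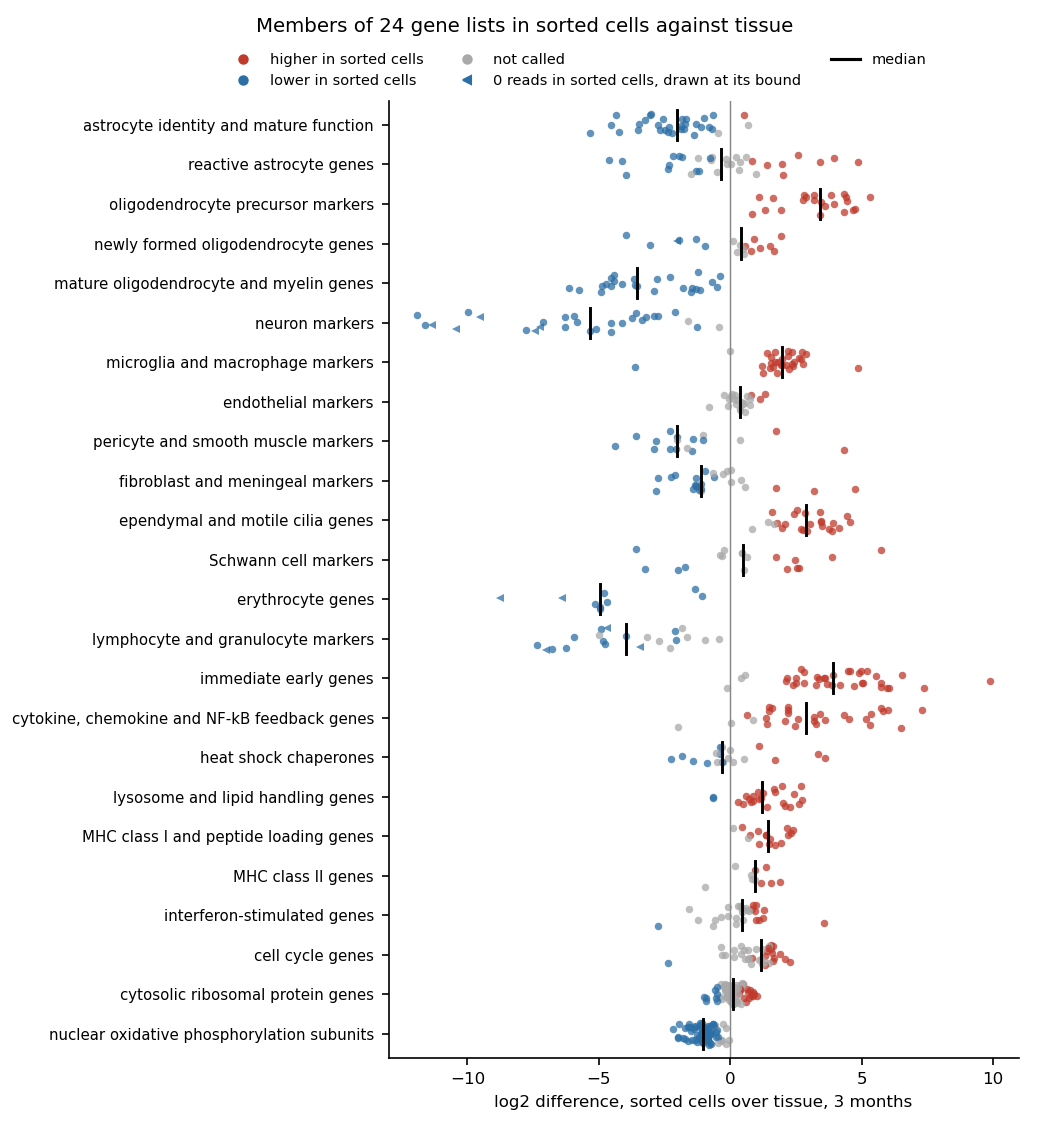
Each point is 1 gene of 24 lists, placed by its log2 difference of sorted cells over tissue at 3 months; colours give the call and the black bar the median of the list. All 22 oligodendrocyte precursor genes lie above 0 and all 25 myelin genes below it. Triangles are genes with no count in sorted cells, drawn at the bound set by 3 counts per library.

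Immediate early genes, which cells switch on within minutes of a stimulus, were the list with the highest median; they include the AP-1 factors of the Fos and Jun families. Of 36 members tested, 33 were called higher, none was called lower, and the median was 3.90. Fosb (chr7:19302696-19310051, minus strand) had 3088 and 3086 CPM in sorted cells, against 3.46, 2.81 and 3.597 CPM in tissue, a 939.6-fold difference (log2 9.88 ± 0.16 SE, adjusted p = 2.21e-05). Fos had 4359.9 and 4399.6 CPM in sorted cells, against 26.97, 22.1 and 29.5 CPM in tissue. The sorted libraries lay close together in each gene, and no tissue library came near them. Egr1, a zinc finger factor of the same class, had 3652 and 4104 CPM in sorted cells, against 38.4, 41.9 and 45.6 CPM in tissue, Junb 1556 and 1862 CPM in sorted cells, against 33.5, 20.005 and 24.01 CPM in tissue and the nuclear receptor gene Nr4a1 906 and 937 CPM in sorted cells, against 20.9, 18.6 and 19.9 CPM in tissue. The 3 members not called were Npas4 and Arc, known best from active neurons, and Fosl1. The sorted cells had been digested and sorted alive before lysis and the tissue had not, and the part of these steps in the difference cannot be told apart from that of cell type.

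Cytokine, chemokine and NF-kB feedback genes moved with them. Of 30 members, 27 were called higher and none lower, at a median of 2.89. Cxcl2, a chemokine that draws neutrophils, had 79.2 and 80.6 CPM in sorted cells, against 0.635, 0.342 and 0.563 CPM in tissue, and Tnf, the gene of tumour necrosis factor, 96.3 and 148 CPM in sorted cells, against 1.99, 1.21 and 0.867 CPM in tissue. Their log2 differences were 7.28 ± 0.22 SE and 6.48 ± 0.36 SE. Il1b, the gene of interleukin-1 beta, had 198 and 191 CPM in sorted cells, against 5.04, 1.82 and 2.34 CPM in tissue, and Nfkbia, the inhibitor that NF-kB itself induces, 335 and 459.7 CPM in sorted cells, against 42.1, 40.4 and 47.6 CPM in tissue. Ccl3 and Ccl4, chemokine genes of microglia and macrophages, differed by 5.72 ± 0.24 SE and 5.33 ± 0.16 SE. Heat shock chaperones did not follow as a group, with 4 called higher and 7 lower of 19. Hspa1a, an inducible Hsp70 gene, had 67.4 and 53.9 CPM in sorted cells, against 5.36, 4.93 and 4.85 CPM in tissue, and its near-identical copy Hspa1b, with which it can share reads, 76.4 and 60.5 CPM in sorted cells, against 9.93, 5.201 and 5.33 CPM in tissue. Hspb1 and Hspb8, small heat shock protein genes, were lower, at -1.83 ± 0.21 SE and -2.27 ± 0.26 SE on the log2 scale. The count of lower chaperones was 4 with upper-quartile scaling, with library totals only, with limma-voom and without tissue replicate 2 or 3.

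**Figure D3:**
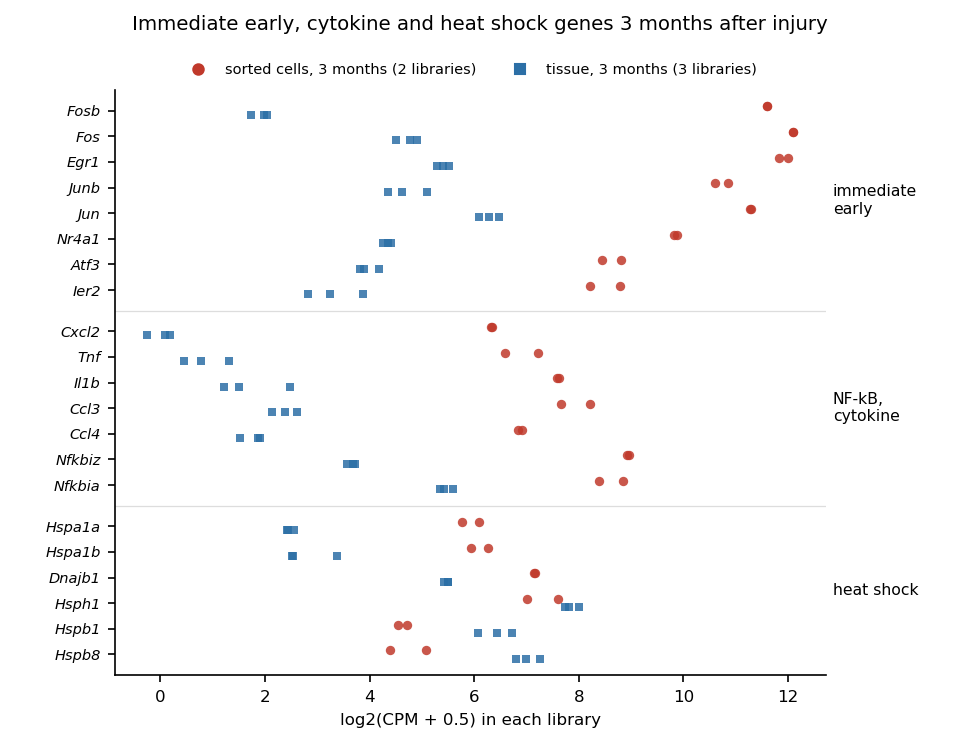
Points are libraries at 3 months, sorted cells as circles and tissue as squares, on an axis of log2(CPM + 0.5), for immediate early, cytokine and heat shock genes. The groups overlap in no immediate early or cytokine gene drawn here, where they do not overlap in 71.7% of all 21348 genes tested, while Hspb1 and Hspb8 lie to the left in sorted cells.

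Because these 2 lists moved together, their promoters were read from RefSeq (GRCm38.p6; 250 bases before to 50 after each start) and searched on both strands for 3 motifs: the CRE, TGACGTCA, the kappaB element and the CArG box. The kappaB element is the site of NF-kB, the CArG box that of serum response factor and the CRE that of CREB. A kappaB match stood in 11 of the 21 cytokine list genes with a promoter entry (52.4%), in 7 of 30 immediate early genes (23.3%) and in 5.14% of all 27025 genes. It also stood in 2 of 15 oligodendrocyte precursor genes (13.3%) and in 1 of 19 myelin genes (5.26%). The 27025 are all genes with a promoter entry, not those tested for expression. A match at any start of a gene counted, so genes with several starts had more chances to match. A CRE match stood in 4 of 30 immediate early genes (13.3%) and in 2.03% of all genes, and a CArG match in 3 of 30 (10%) and in 1.81%. Of the 15 precursor genes 0 had either motif. Of the 19 myelin genes 0 had a CRE and 1 had a CArG box (5.26%). A kappaB palindrome such as that of Cxcl2 matches on both strands at overlapping positions. The cytokine list was made to include NF-kB feedback genes, so its high share of kappaB matches follows in part from that choice and is no independent evidence. The immediate early list was also chosen with earlier results of these data known, so its shares are no independent evidence either. These are matches of letters, not measured binding. Shown for each motif are the 250 bases upstream of genes described above or, for the CRE and the CArG box, of other called members, 5′ to 3′, with the match in capitals.
Fosb promoter, chr7:19310046-19310295, minus strand: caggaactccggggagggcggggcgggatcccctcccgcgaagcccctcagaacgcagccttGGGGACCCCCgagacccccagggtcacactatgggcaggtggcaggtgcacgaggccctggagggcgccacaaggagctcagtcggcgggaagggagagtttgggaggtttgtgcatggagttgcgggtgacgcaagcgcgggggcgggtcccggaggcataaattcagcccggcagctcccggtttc
Fos promoter, chr12:85473640-85473889, plus strand: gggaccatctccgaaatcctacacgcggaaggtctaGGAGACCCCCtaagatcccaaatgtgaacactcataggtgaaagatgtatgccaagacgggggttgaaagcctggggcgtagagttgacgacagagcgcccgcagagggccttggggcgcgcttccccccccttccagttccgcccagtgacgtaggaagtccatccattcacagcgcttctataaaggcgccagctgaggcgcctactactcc
Cxcl2 promoter, chr5:90903649-90903898, plus strand: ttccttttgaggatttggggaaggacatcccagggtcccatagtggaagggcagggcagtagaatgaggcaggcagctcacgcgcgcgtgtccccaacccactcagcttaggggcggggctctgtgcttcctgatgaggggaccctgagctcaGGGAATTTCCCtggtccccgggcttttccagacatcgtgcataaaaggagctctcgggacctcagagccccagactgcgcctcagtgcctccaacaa
Nfkbia promoter, chr12:55492648-55492897, minus strand: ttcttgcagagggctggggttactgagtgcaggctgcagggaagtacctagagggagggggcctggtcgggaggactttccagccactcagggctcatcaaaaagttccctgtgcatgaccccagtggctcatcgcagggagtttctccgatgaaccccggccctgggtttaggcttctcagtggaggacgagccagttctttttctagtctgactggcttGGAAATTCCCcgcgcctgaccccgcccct
Dusp1 promoter, chr17:26508473-26508722, minus strand: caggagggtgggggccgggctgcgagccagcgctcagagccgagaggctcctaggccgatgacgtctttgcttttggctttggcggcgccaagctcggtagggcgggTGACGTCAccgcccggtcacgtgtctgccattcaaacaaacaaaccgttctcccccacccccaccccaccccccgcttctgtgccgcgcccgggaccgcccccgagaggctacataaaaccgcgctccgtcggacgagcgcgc
Zfp36 promoter, chr7:28379229-28379478, minus strand: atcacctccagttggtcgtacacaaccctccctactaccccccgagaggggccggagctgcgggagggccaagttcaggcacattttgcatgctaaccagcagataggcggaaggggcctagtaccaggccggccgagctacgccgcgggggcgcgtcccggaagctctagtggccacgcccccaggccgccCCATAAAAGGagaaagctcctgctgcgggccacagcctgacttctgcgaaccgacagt
The capitals mark a kappaB match in the first 4, the CRE in Dusp1, a phosphatase gene of the immediate early list, and the CArG box in Zfp36, which encodes a protein that destabilises cytokine mRNA.

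Genes of energy metabolism were lower. Of 72 nuclear subunits of oxidative phosphorylation, none was called higher and 64 were called lower, at a median of -1.02. Atp5b, a catalytic subunit of ATP synthase, had 526 and 613 CPM in sorted cells, against 1163, 1187 and 1149.6 CPM in tissue, and Cox5a, a subunit of cytochrome c oxidase, 44.8 and 35.3 CPM in sorted cells, against 157, 159 and 159 CPM in tissue. Of the 12 mitochondrially encoded genes tested, 1 was called higher and 9 lower. mt-Co1, of the same enzyme, had 7324 and 6703 CPM in sorted cells, against 13207, 14484 and 12831 CPM in tissue. mt-Co2, the member called higher, had 7.24 and 6.54 CPM in sorted cells, against 0.993, 2.92 and 1.69 CPM in tissue, and the call was lost without tissue replicate 3. Its level lay far below that of mt-Co1 in every library, for a reason that was not tested, so the call carries little weight. Cytosolic ribosomal protein genes were centred near 0, with a median of 0.09, 16 called higher and 8 lower of 77. Over all genes tested 22.9% were called higher and 28% lower. Pseudogene copies can share the reads of ribosomal protein genes. The higher count was 7 without tissue replicate 2, 6 without tissue replicate 3 and 8 without sorted replicate 3, and the lower count was 17 without sorted replicate 3.

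Lysosomal and lipid handling genes were higher, 22 of 24, with 2 lower. Apoe, the main lipid carrier of the nervous system, had 27857 and 36556 CPM in sorted cells, against 9614, 6700.3 and 7899 CPM in tissue and made up 2.96% and 3.75% of counts in sorted cells, against 0.65% to 0.924% in tissue. Gpnmb, a membrane glycoprotein gene of lipid-laden phagocytes, had 1694 and 1998 CPM in sorted cells, against 287, 234 and 312 CPM in tissue (2.73 ± 0.16 SE), and the lysosomal protease gene Ctsd 3047 and 4457 CPM in sorted cells, against 1025, 719.6 and 879.8 CPM in tissue. The 2 lower members were the fatty acid binding protein genes Fabp5 and Fabp7. These genes moved with the microglia and macrophage markers, whose list shares genes such as Gpnmb and Ctss with theirs, and the part of those cells was not tested. MHC class I and peptide loading genes were higher in 14 of 16 cases and lower in none; B2m, the light chain shared by class I molecules, had 1493 and 1941 CPM in sorted cells, against 432, 339 and 377 CPM in tissue. Of 10 MHC class II genes 5 were called higher, among them Cd74 with 522 and 726 CPM in sorted cells, against 334, 144 and 162 CPM in tissue, and that count was 3 with limma-voom, 2 without sorted replicate 3 or tissue replicate 2 and 1 without tissue replicate 3. The call of Cd74 was lost in each of these cases. Interferon-stimulated genes gave 9 higher and 1 lower of 28, led by Irf1, which NF-kB also induces (3.55 ± 0.17 SE); the lower count was 3 without sorted replicate 1 or 3, and 0 without tissue replicate 1 or 3 and with limma-voom.

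Extracellular matrix genes were more often higher than lower. Of 22 chondroitin sulphate proteoglycan and tenascin genes 11 were called higher and 4 lower. Vcan and Cspg4, described with the precursor cells, and Ptprz1 were among the higher ones, and Tnr, which encodes tenascin-R, had 1163 and 1139 CPM in sorted cells, against 74.3, 107 and 98.9 CPM in tissue. Ncan and Bcan, the genes of neurocan and brevican, differed by 1.73 ± 0.13 SE and 0.55 ± 0.12 SE, and the Bcan call was lost without sorted replicate 3 or tissue replicate 3. Hapln2 and Hapln4, link protein genes of the nodes and of perineuronal nets, were lower, at -5.77 ± 0.46 SE and -5.56 ± 0.21 SE on the log2 scale. Of 30 collagen, laminin and basement membrane genes 18 were called higher and 4 lower. Hspg2, the gene of perlecan, had 605 and 742 CPM in sorted cells, against 146, 52.1 and 94.5 CPM in tissue and Col4a1, a basement membrane collagen, 246 and 196 CPM in sorted cells, against 103, 69.8 and 80.3 CPM in tissue. Col1a1, the fibrillar collagen of scar tissue, had 325 and 257 CPM in sorted cells, against 512, 172 and 376 CPM in tissue and was not called, as its groups overlapped.

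Cell cycle genes were higher in part. Of 36 members 14 were called higher and 1 lower, with the replication licensing genes Mcm2 to Mcm7 all among the higher ones. Mcm2 had 34.4 and 44.6 CPM in sorted cells, against 17.8, 9.19 and 13.3 CPM in tissue, and Cenpf, a kinetochore protein gene, 18.97 and 12.3 CPM in sorted cells, against 4.33, 2.13 and 4.68 CPM in tissue. Mki67, the usual marker of dividing cells, had 58.1 and 34.4 CPM in sorted cells, against 41.1, 10.8 and 35.2 CPM in tissue, with 2 tissue libraries between the sorted ones, and was not called. Without tissue replicate 3 the higher count was 7, and without tissue replicate 2 it was 9. Ccne1, which encodes cyclin E1, was the lower member (-2.36 ± 0.21 SE). Of 23 cholesterol synthesis genes 2 were called higher and 6 lower, and the higher count was 0 without tissue replicate 3 and 1 without any 1 of the other 4 libraries. Insig1, which restrains the pathway when sterols are ample, was one of the 2 higher ones (0.50 ± 0.12 SE), and Acat2, which encodes an enzyme of its first step, one of the lower ones (-1.01 ± 0.20 SE). Glutamate and GABA receptor genes gave 7 higher and 19 lower of 30, where 22.9% of all genes tested were called higher and 28% lower. The AMPA receptor gene Gria4 had 278 and 279.7 CPM in sorted cells, against 86.3, 136 and 116 CPM in tissue. The kainate receptor gene Grik3 had 96.1 and 95.9 CPM in sorted cells, against 30.1, 34.01 and 30.1 CPM in tissue. The NMDA receptor gene Grin2a was at 0 in sorted cells, against 27.01, 48.7 and 38.1 CPM in tissue.

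The largest differences among all genes were taken from those with at least 5 CPM in the higher group and no overlap between the groups. The 10 largest in sorted cells were 7 predicted genes, Fam71a, Fosb and Il2. Fam71a had 18.3 and 11.2 CPM in sorted cells and no count in tissue, at least 122-fold higher at the 3-count floor. It lies past the 3′ end of the immediate early gene Atf3, on the same strand of chromosome 1. Whether its counts depend on transcription of Atf3 was not tested. Il2, the interleukin-2 gene, had 14.4 and 12.1 CPM in sorted cells, against 0.0794, 0 and 0 CPM in tissue, and rested on 829 counts in sorted cells against 2 in tissue (ratio 493, 95% interval 137 to 4072, counting error only). Leaving predicted genes aside, Fos, Cxcl2, Dthd1, Egr1, Eid3, Tnf and Junb came next. The 10 largest in tissue had no count in either sorted library. Scn4b, a sodium channel subunit gene, had 322, 344 and 339.5 CPM in tissue and was at least 3208-fold lower in sorted cells by the 3-count floor. That floor covers counting error only, so the real difference may be smaller. Slc6a5, the glycine transporter gene of inhibitory cord neurons, had 219.7, 303 and 289.7 CPM in tissue. Scn10a, a sodium channel gene of sensory neurons, had 250.3, 35.1 and 90.2 CPM in tissue, and Scn11a, another, 148, 20.1 and 53.2 CPM. Tissue replicate 1 was highest for both, and both calls were lost with limma-voom. In all, 146 genes were at 0 in both sorted libraries and at 5 CPM or more in tissue on average, and 3 genes were at 0 in tissue and at 5 CPM or more in sorted cells.

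Long non-coding genes were called higher about as often as lower, 1175 (21.5%) and 1154 (21.2%) of 5453 tested, whereas coding genes gave 3707 (23.3%) and 4830 (30.4%) of 15895. Predicted genes aside, the highest differences were those of Junos (4.77 ± 0.17 SE) and Il1bos (4.44 ± 0.58 SE), which lie opposite Jun and Il1b. Without a stated strand setting, reads of such a pair cannot be told apart. Neat1, the RNA that builds nuclear paraspeckles, had 32.8 and 21.7 CPM in sorted cells, against 2.502, 1.59 and 2.34 CPM in tissue, and Malat1, another nuclear RNA, 1496 and 1302 CPM in sorted cells, against 196, 156 and 278 CPM in tissue; Neat1 and Meg3 also have a second row in the tables, so their levels are uncertain. Meg3, an imprinted RNA that is abundant in neurons, had 7.29 and 11.6 CPM in sorted cells, against 175, 251 and 221 CPM in tissue, and H19, another imprinted RNA, 1.74 and 0.785 CPM in sorted cells, against 41.8, 31.5 and 52.9 CPM in tissue. Zeb2, a transcription factor gene that the study followed in astrocytes, had 346 and 333 CPM in sorted cells, against 122, 152 and 153 CPM in tissue (1.26 ± 0.13 SE, adjusted p = 0.000817). Its antisense partner Zeb2os had 29.6 and 31.4 CPM in sorted cells, against 12.7, 13.2 and 14.3 CPM in tissue (1.19 ± 0.14 SE); the same doubt about strand holds for this pair, which overlaps on chromosome 2 (Zeb2 chr2:44983632-45117395, minus strand, and Zeb2os chr2:45110707-45114087, plus strand).

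To see which of these differences changed between the 2 times, the comparison at 3 months was set against the same comparison at 1 month in a fit of 11 libraries. Tissue libraries held 15.4 to 18.4 M counts at 1 month, against 23.6 to 27.1 M at 3 months. The biological coefficient of variation at 1 month was 0.263 in sorted cells and 0.0716 in tissue, and the fit takes a shared spread per gene. Depth and any batch that goes with the time cannot be told apart from the stage. Of 23259 genes tested, the difference of sorted cells over tissue was higher at 3 months than at 1 month in 1377 (5.92%) and lower in 1879 (8.08%). Of 32 astrocyte identity genes 1 was called higher and 1 lower, and their median was -2.06 at 3 months and -2.15 at 1 month. Gfap differed by -5.35 ± 0.13 SE at 3 months and -5.29 ± 0.11 SE at 1 month, and Slc1a2 was the member that was lower at 3 months, with a shift of -0.73 ± 0.17 SE (adjusted p = 0.0155). These counts turned on single libraries. They were 5 higher and 2 lower without sorted replicate 3 of 3 months, 1 and 3 without sorted replicate 1 and 1 and 2 without tissue replicate 1 of 3 months. None was higher without tissue replicate 3 of 3 months or any 1 of the 3 tissue libraries of 1 month, 2 were higher without sorted replicate 3 of 1 month, and none was lower with limma-voom. Of the 32 genes that astrocytes induce after injury, 9 were higher and 0 lower, with a median shift of 0.635. The higher count was 6 with limma-voom, and 5 without tissue replicate 3 of 3 months or 2 of 1 month. Without sorted replicate 1 of 3 months 11 were higher and 2 lower, and without sorted replicate 3 of 3 months 7 and 1. Neuron genes gave none higher and 9 lower of 29, a count of 5 without tissue replicate 1 or 2 of 1 month and of 3 with limma-voom.

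Microglia and macrophage markers had the clearest shift. Of 30 members 28 were higher at 3 months and none lower; at 1 month 7 of them had been called higher in sorted cells than in tissue and 6 lower, where 23.3% and 28.2% of all genes were. C1qa moved by 2.59 ± 0.28 SE (adjusted p = 0.000808) and Cd68 by 2.75 ± 0.29 SE (adjusted p = 0.000803). C1qa had 1876 ± 598 CPM in sorted cells at 3 months and 829.8 ± 196 CPM at 1 month, while tissue had 345 ± 40.8 CPM at 3 months and 922 ± 119 CPM at 1 month (SD, n = 2, 3, 3 and 3 in that order, scaled over 17 libraries). P2ry12 and Tmem119 moved by 1.47 ± 0.26 SE and 1.93 ± 0.24 SE. The count of 28 was 25 with limma-voom and lay between 26 and 29 when any single library was left out.

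Other lists moved the same way. Lysosomal and lipid handling genes had 21 of 24 higher and 1 lower, MHC class I genes 13 of 16, MHC class II genes 6 of 10, cytokine and NF-kB genes 17 of 30 and immediate early genes 11 of 36, none of them with a lower member apart from the first. With limma-voom the higher counts were 18 for lysosomal, 9 for MHC class I, 1 for MHC class II, 14 for cytokine and 5 for immediate early genes. Single libraries weighed on some of them too. Without tissue replicate 2 of 1 month the cytokine count was 11 and the MHC class II count 1. The MHC class II count was 2 without sorted replicate 3 or tissue replicate 3 of 3 months and 3 without tissue replicate 2 of 3 months, and the immediate early count was 7 when any 1 of 6 libraries was left out and 17 without tissue replicate 1 of 3 months. Apoe moved by 2.40 ± 0.25 SE (adjusted p = 0.000803). Ribosomal protein genes were higher in 68 of 77 cases, with a median of 0.69, though 32 were called with limma-voom and 41 without sorted replicate 3 of 3 months. Endothelial genes were higher in 11 of 22, a count of 3 with limma-voom, and Flt1 moved by 0.80 ± 0.20 SE. Their count was 5 without sorted replicate 3 of 3 months or tissue replicate 1 of 1 month, 6 without tissue replicate 2 of 3 months, 7 without tissue replicate 3 of 3 months or 2 of 1 month, and 17 without tissue replicate 1 of 3 months. Among myelin genes 11 of 25 were higher and 1 lower at 3 months: Mbp differed from tissue by -4.94 ± 0.19 SE at 3 months and -5.97 ± 0.17 SE at 1 month, and Mag moved by 1.05 ± 0.21 SE. The higher count was 7 without tissue replicate 1 or 3 of 1 month and 5 with limma-voom, and the lower count was 2 without sorted or tissue replicate 1 of 3 months. Mobp and Mog moved by 1.51 ± 0.45 SE and 1.00 ± 0.28 SE, and both calls were lost when any of 9 of the 11 libraries was left out.

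A smaller set moved the other way. Cell cycle genes were lower at 3 months in 21 of 36 cases and higher in none, with median log2 differences from tissue of 1.17 at 3 months and 2.68 at 1 month; at 1 month 35 of the 36 had been called higher. With limma-voom the count of 21 was 9. Mki67 moved by -3.29 ± 0.59 SE (adjusted p = 0.00486) and Top2a, a topoisomerase gene of dividing cells, by -2.38 ± 0.56 SE. Cholesterol synthesis genes were lower in 11 of 23 cases, glutamate and GABA receptor genes in 14 of 30 and oligodendrocyte precursor genes in 6 of 22, with none higher in any of these lists. With limma-voom the lower counts were 3 for cholesterol, 4 for receptor and 3 for precursor genes. The cholesterol count was 5 without tissue replicate 1 of 1 month and 6 without tissue replicate 2 of 1 month. Among the precursor genes Ptprz1, a receptor phosphatase gene with a proteoglycan form, was lower, with a shift of -1.05 ± 0.18 SE, while Pdgfra (-0.42 ± 0.14 SE) and Olig2 (-0.22 ± 0.16 SE) were not called. Of 24 ependymal genes 1 was higher and none lower, but the direction turned on the sorted libraries of 3 months: 5 were lower and none higher without replicate 1, and 4 were higher and none lower without replicate 3. The higher count was 2 without tissue replicate 1 of 3 months, and 0 with limma-voom and without sorted replicate 3 of 1 month or any 1 of the other 5 tissue libraries. Zeb2 and Zeb2os were not called, at -0.12 ± 0.14 SE and 0.44 ± 0.21 SE.

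**Figure D4:**
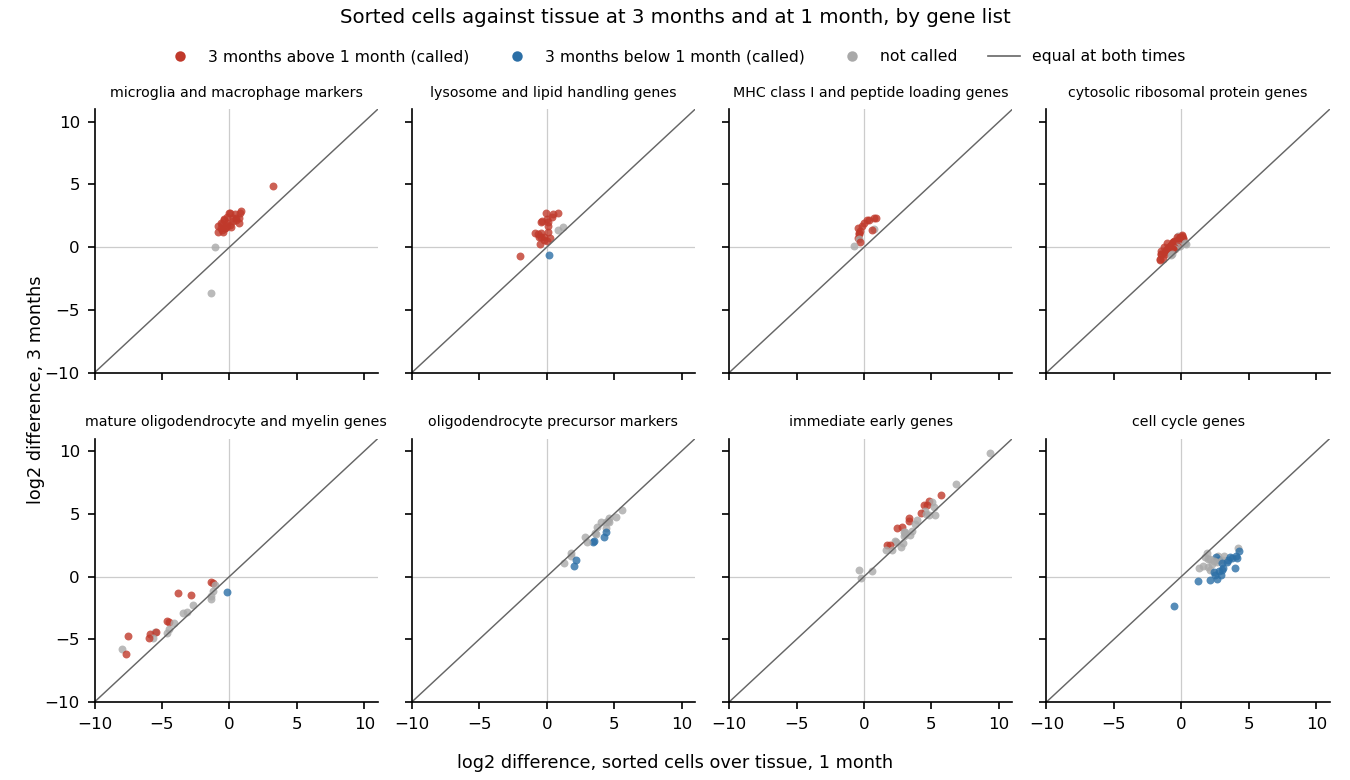
Each point is a gene of 8 lists, with its log2 difference of sorted cells over tissue at 3 months on the vertical axis and at 1 month on the horizontal axis; the line marks equal values, and red and blue points were called above and below it. Of the microglia and macrophage markers 28 of 30 lie above the line with a call, and of the cell cycle genes 21 of 36 below it.

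Set beside the earlier sorted groups, which were sham, 7 days and 1 month with 3 libraries each, the 3-month sorted libraries had the lowest mean Gfap and Aqp4 of the sort. The sham libraries were from 7 days, so they differ from those of 3 months in time as well as in injury. On a scale common to 17 libraries, mean Gfap was 231 ± 97.6 CPM in sham, 1268 ± 172 at 7 days, 228 ± 31.8 at 1 month and 165 ± 8.19 at 3 months in sorted cells (SD), against 6667 ± 282 CPM in 3-month tissue. The 3-month libraries lay within the range of the sham libraries, 156 to 342 CPM, and below the lowest at 1 month, 193 CPM. Aqp4 had 506 ± 91.003 CPM in sham, 284 ± 99.5 at 7 days, 74.04 ± 12.5 at 1 month and 52.3 ± 10.9 at 3 months. The higher of the 2 libraries at 3 months, with 60.0 CPM, lay just under the lowest at 1 month, with 62.3 CPM. C1qa had 94.8 ± 76.6 CPM in sham and 636 ± 96.9 at 7 days, so that the 3-month level given above was the highest mean of the sort. Fos was high at every sorted stage, sham included, with a lowest library of 1974 CPM and a highest of 7024 CPM, against 23.1 to 41.8 CPM over all 6 tissue libraries. These levels are given as a description, with no test. The series has tissue only at 1 month and 3 months after injury, and none from sham animals or from 7 days.

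**Figure D5:**
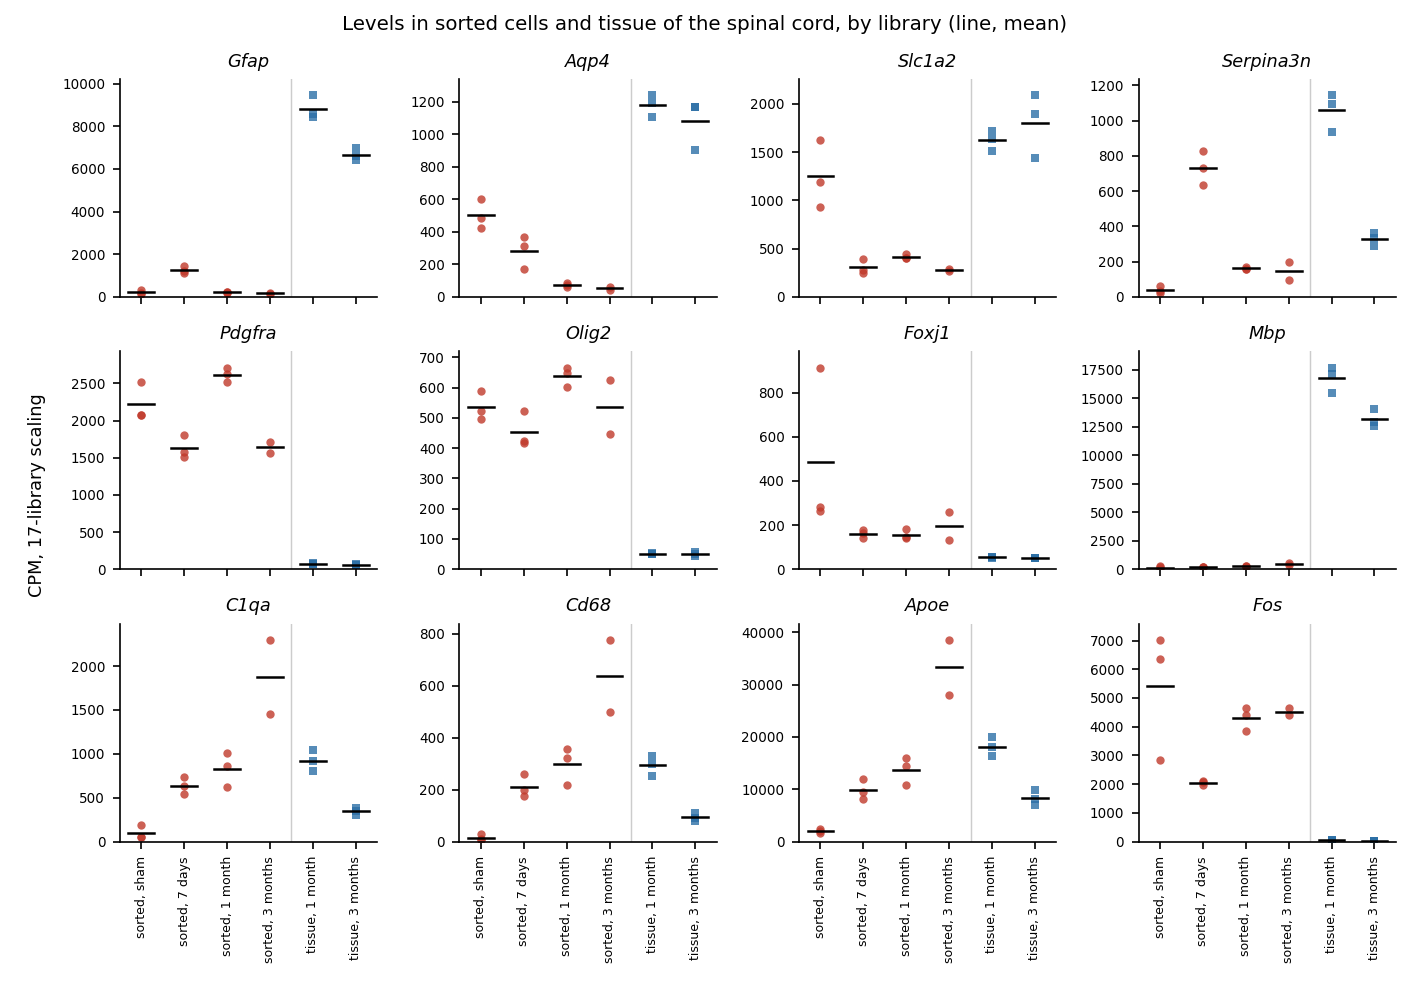
Points are libraries and lines are group means, in CPM on a scale common to 17 libraries, for 12 genes in sorted cells of sham, 7 days, 1 month and 3 months (left) and tissue of 1 and 3 months (right). Fos is high in every sorted group, and C1qa, Cd68 and Apoe have their highest mean in sorted cells at 3 months.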

How the data were processed

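RNA-seq of sorted tdTomato-positive cells and of injured tissue was read from 2 deposited tables of raw counts per gene, joined by gene ID. The authors' deposited counts are whole reads per gene; the submitters' processing notes name TopHat2 2.1.0, Cufflinks 2.2.1, DESeq2 and mm10 without their order, while for the counting program, annotation and strand setting the answer is not given in the sources used here. Beyond the pooling of mice, labels do not say how replicates were prepared, so p-values measure the spread between these libraries.

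Of the sorted table's 43693 genes, 225 had no counterpart and were not analysed here. Where a symbol had several rows, the Ensembl row was used. The main test was edgeR 4.0.16's quasi-likelihood F test on 5 libraries (filterByExpr minimum count 10, TMM scaling, Benjamini-Hochberg), checked on simulated counts; the difference between 3 months and 1 month was a contrast in 1 fit of 11 libraries. CPM are counts scaled to TMM-adjusted library totals. The log2 differences are the shrunken values that edgeR reports. Each SE was derived from the test, as the size of the unshrunken log2 difference divided by the square root of its F statistic. Named are key genes of 31 lists, the 2 largest called members of each list in each direction, the 10 largest differences each way with at least 5 CPM and no overlap, the 5 largest among long non-coding genes and the 5 largest interactions; further list members were named after their values were seen. Members and lists were chosen with earlier results of these data known. Lists overlap in some genes. Some named genes are not reported here. Alternatives were RLE, upper-quartile and total-count scaling, no filter, DESeq2 1.42.0, limma-voom (limma 3.58.1) with a variance per kind of sample, coding genes only, 11 libraries, a replicate block and leaving out each library. Depths of 22.5 to 36.3 M counts set the floor of 3 counts at 0.104 CPM in sorted cells and 0.121 CPM in tissue; floors and intervals cover counting error only.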

Additional observations from a re-analysis of the deposited data

Results flagged for a closer look

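Each result here stands out because the difference of sorted cells over tissue was not the same at 3 months as at 1 month after injury, by the test of that difference itself in the fit of 11 libraries (adjusted p under 0.05, edgeR). Values are log2 shifts, 3 months minus 1 month.

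Microglia and macrophage genes shifted most evenly: C1qa by 2.59, Cd68 by 2.75, Csf1r by 1.84, Tmem119 by 1.93, the chemokine receptor gene Cx3cr1 by 1.72 and P2ry12 by 1.47. For these 6 genes no call was lost when any single library was left out. Myelin genes shifted the same way, Mbp by 1.03, Mag by 1.05, Mobp by 1.51 and Mog by 0.995, as did Flt1 by 0.797 and Lum, a proteoglycan gene of fibroblasts, by 1.35. The glutamate transporter gene Slc1a2 shifted by -0.727 and the neurofilament gene Nefm by -0.988. The call of Flt1 was lost when any of 4 libraries was left out, that of Nefm with any of 5, those of Mobp and Mog with any of 9, and that of Lum with 1.

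The largest shifts were in genes at or near 0 in sorted cells at one of the stages, so that a fitted size has no firm base. At 0 in all sorted libraries of 1 month were Tmem125 (adjusted p = 0.000292), Prlr (0.00143), Msln (0.0188) and Glycam1 (0.015), with means of 1.11, 0.921, 0.416 and 10.6 CPM in sorted cells at 3 months. Glycam1, an adhesion ligand of high endothelial venules, came from 1 library, with 21.2 CPM in sorted replicate 1 and 0.0872 CPM in replicate 3. Pnoc, which encodes the neuropeptide precursor of nociceptin, shifted by 5.88, with means of 0.819 CPM in sorted cells at 3 months and 0.0064 CPM at 1 month. At 0 in both sorted libraries of 3 months were P2rx3 (adjusted p = 0.0021), Caln1 (0.00428), Dlgap2 (0.000808), Gabra5 (0.0174) and Abcc12 (0.00193). Their means in sorted cells at 1 month lay between 0.759 and 1.41 CPM. The sorted libraries held genes at 0 in one replicate and at up to 7.46 CPM in the other, a range that covers all these means except that of Glycam1. The calls of Gabra5 and Msln were lost with 2 and with 1 of the libraries left out.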

How the results depend on the processing

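Of 220 named genes 193 were called and 152 of these under every alternative; 12 changed sign, none of them called with all 5 libraries. Between 8597 and 11801 genes were called under the alternatives without a replicate block or a left-out library, against 10866, with 38.2% to 50.5% of them higher, and library totals moved the median of all genes by 0.105. Same-numbered sorted and tissue samples share only a number, with correlations of -0.108 and -0.0587 at 3 months and -0.0377 to 0.000838 at 1 month; with the replicate number as a block 2372 genes were higher and 3637 lower. Leaving out a library gave 3163 to 6399 higher and 4144 to 8492 lower, 3163 without tissue replicate 3; a lone sorted library is assumed there to vary like the tissue ones. For the shift between 3 months and 1 month limma-voom gave 741 higher and 518 lower, DESeq2 1902 and 2531, the block 945 and 1257, and leaving out a library 835 to 1873 higher and 1094 to 3247 lower. There the counts were 907 and 1147 without tissue replicate 1 of 1 month, 835 and 1094 without replicate 2, 893 higher without tissue replicate 2 of 3 months, 861 and 1166 without replicate 3, and 3247 lower without sorted replicate 1 of 3 months. The sign of the log2 difference turned in these cases, and the cause was not tested. With upper-quartile scaling Mrc1 was 0.081, with library totals Mrc1 0.11 and Ifit3 0.0041, with limma-voom Mrc1 0.067, and with coding genes only Mrc1 0.046. With no filter Cdh5 was -0.018, Lum -0.047 and Sqle -0.043, and with the block Cdh5 -0.28, Lum -0.17 and Sqle -0.053. With a library left out the values ran over -0.50 to 0.34 for Cdh5, -0.33 to 0.59 for Cldn5, -0.61 to 0.088 for Col1a1, -0.14 to 0.79 for Isg15, -0.23 to 0.21 for Lum, -0.42 to 0.29 for Mrc1, -0.12 to 0.59 for Pecam1, -0.83 to 0.27 for Prx, -0.35 to 1.18 for Sox9, -0.19 to 0.21 for Sqle and -3.03 to 4.81 for Glycam1 (-3.03 without sorted replicate 1, adjusted p = 0.0407). With 2 sorted libraries, a mean rests on few mice, and low genes were detected less often in sorted cells than in tissue.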
